A study of Homo sapiens with 7 samples.

Results

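Small nucleolar RNAs and small Cajal body RNAs were followed in SNU398 cells, an established human hepatocellular carcinoma line, across 4 RNA sequencing libraries. The members were the genes whose symbol begins with SNORA, SNORD or SCARNA and whose normalized count was above the table's floor of 5 in at least 1 library. The rule kept 245 of the 392 genes with these prefixes, out of 23710 genes in all. They were chosen by their highest level over the 4 libraries, so that each had reads somewhere is no result.

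Most of these RNAs are cut out of the introns of other genes and guide the chemical modification of other RNAs. Box C/D RNAs (SNORD) guide 2′-O-methylation by fibrillarin, and box H/ACA RNAs (SNORA) guide pseudouridylation by dyskerin, mostly on ribosomal RNA in the nucleolus. Cajal body RNAs (SCARNA) carry either kind of box, or both, and guide the same modifications on spliceosomal RNAs.

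All 4 libraries came from total RNA of SNU398 cells given 30 µM of a peptide for 8 h, in the groups PEN-FFW, PEN-WT, PEN-MUT and PEN, with 1 library each. From what is known of the study, penetratin (PEN) carries an attached cargo into cells. The cargo of PEN-WT is a short piece of the transcription factor SALL4, through which SALL4 contacts RBBP4 and so the NuRD repressor complex. That of PEN-MUT is a mutated form of the piece, and that of PEN-FFW an engineered one. The cells are 1 cultured line, no untreated library was analysed here, and with 1 library per peptide no difference below has a replicate check or a p-value.

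Reads in genes above the floor of the table numbered 27347377 for PEN-FFW, 40717633 for PEN-WT, 32043544 for PEN-MUT and 37784093 for PEN. Member RNAs took 0.163% of them in PEN-FFW, 0.141% in PEN-WT, 0.141% in PEN-MUT and 0.147% in PEN. Of 16 liver and liver cancer markers, 8 were listed at the floor in all 4 libraries (APOB, TTR, SERPINA1, TF, FGB, HNF4A, KRT8 and KRT18), while GPC3 had 998.0 to 1281 normalized counts. Rows at the floor in every library may be failed estimates, so they do not show that a gene was silent. SALL4 itself had normalized counts of 1168 with PEN-FFW, 1291 with PEN-WT, 1359 with PEN-MUT and 1665 with PEN. Of 7 markers of blood, fibroblasts and endothelium, 4 were at the floor, and PTPRC, COL1A1 and DCN had 298.2 to 373.0, 126.8 to 220.6 and 1355 to 2153. COL1A1 was the only one of the 3 past 2-fold in any pair, 1.02 ± 0.14 higher on the log2 scale in PEN-FFW than in PEN, and its part in the results below was not tested. In such bulk samples fewer cells and less RNA per cell cannot be told apart.

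The sequences of 8 members carry the differences described below, and are shown as the plus or minus strand of the reference genome GRCh37 reads 5′ to 3′. SNORD17 (chr20:17943353-17943589 on the minus strand) and SNORD97 (chr11:10823014-10823155 on the minus strand) are the 2 most abundant box C/D RNAs and were highest in PEN-FFW. SNORD48 (chr6:31803040-31803103 on the plus strand) differed most between PEN-FFW and PEN-WT, and SNORD24 (chr9:136216251-136216325 on the plus strand) lay furthest below PEN in PEN-FFW among members averaging at least 50 normalized counts. Capitals mark TGATG, the core of the C box, starting in the first 12 bases, and CTGA, the D box, in the last 14 bases; SNORD97 held neither in these windows.
SNORD17: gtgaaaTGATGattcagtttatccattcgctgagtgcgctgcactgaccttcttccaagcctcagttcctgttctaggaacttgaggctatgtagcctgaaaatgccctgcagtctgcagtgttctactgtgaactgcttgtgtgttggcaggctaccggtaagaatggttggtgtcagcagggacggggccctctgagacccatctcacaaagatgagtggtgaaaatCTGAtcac
SNORD97: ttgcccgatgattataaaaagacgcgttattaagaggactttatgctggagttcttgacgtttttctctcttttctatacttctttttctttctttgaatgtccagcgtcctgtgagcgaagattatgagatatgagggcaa
SNORD48: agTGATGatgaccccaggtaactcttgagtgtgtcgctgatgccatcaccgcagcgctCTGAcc
SNORD24: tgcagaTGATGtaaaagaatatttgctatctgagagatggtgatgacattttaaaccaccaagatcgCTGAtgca

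SCARNA5 (chr2:234184373-234184648 on the plus strand) and SCARNA6 (chr2:234197322-234197586 on the plus strand) sit 12673 bases apart in introns of the same gene and were the 2 Cajal body RNAs that stood furthest above PEN in PEN-FFW. Capitals mark the same C and D boxes, and both RNAs share the run of 15 bases tggtaaaaggtctga, which starts at base 14 of each.
SCARNA5: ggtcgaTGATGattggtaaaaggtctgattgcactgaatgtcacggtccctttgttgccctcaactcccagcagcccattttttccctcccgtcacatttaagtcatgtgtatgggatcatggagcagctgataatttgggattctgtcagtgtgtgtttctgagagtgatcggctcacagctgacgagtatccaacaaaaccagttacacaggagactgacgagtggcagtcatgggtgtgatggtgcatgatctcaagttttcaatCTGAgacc
SCARNA6: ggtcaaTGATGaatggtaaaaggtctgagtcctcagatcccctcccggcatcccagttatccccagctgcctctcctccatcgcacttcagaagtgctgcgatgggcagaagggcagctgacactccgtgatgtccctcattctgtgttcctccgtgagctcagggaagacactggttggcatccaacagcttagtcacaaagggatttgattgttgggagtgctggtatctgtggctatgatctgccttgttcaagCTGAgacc

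SNORA23 (chr11:9450320-9450501 on the plus strand) stood furthest above PEN in PEN-FFW among box H/ACA RNAs and SNORA51 (chr20:2635713-2635844 on the plus strand) furthest below. Capitals mark the ACA box, which lies 3 bases before the 3′ end.
SNORA23: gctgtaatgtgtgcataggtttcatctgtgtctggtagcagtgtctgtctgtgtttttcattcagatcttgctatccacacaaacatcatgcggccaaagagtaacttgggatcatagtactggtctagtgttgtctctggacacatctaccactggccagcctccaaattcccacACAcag
SNORA51: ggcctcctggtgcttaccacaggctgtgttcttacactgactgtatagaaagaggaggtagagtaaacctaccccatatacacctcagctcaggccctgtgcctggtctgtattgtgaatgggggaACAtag

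Of the 179 members that could be placed on the genome by symbol and length, these letters were looked for on the RNA's own strand only. TGATG and CTGA stood together in 86.8% of 91 SNORD genes, 28.6% of 14 SCARNA genes and 0 of 74 SNORA genes. The ACA box stood in 71.6% of SNORA, 57.1% of SCARNA and 4.4% of SNORD genes. Over all 1459 snoRNA genes of the annotation, 16.7% held both C and D boxes and 19.6% the ACA box.

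The rule itself kept a different share of each class, and a gene at the floor may still have had up to 4 to 6 reads in a library. Of 24 SCARNA genes 21 were above the floor (87.5%), of 106 SNORA genes 86 (81.1%) and of 262 SNORD genes 138 (52.7%). In all 4 libraries 16 SCARNA, 73 SNORA and 119 SNORD genes were above it. The members nearest to the threshold were SNORD66 and SNORA14A, each at 5.54 normalized counts in their highest library, and SNORA15 at 5.88; outside it lay 147 genes, every one at the floor in all 4 libraries. SNORD3A, SNORD13 and SNORD118, box C/D RNAs with promoters of their own, were not analysed here.

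Per length of the RefSeq gene, a few members stood far above the rest. The median level was 613.1 normalized counts per kilobase for SCARNA, 423.5 for SNORA and 535.7 for SNORD, with quartiles of 84.3 to 2458, 116.7 to 918.7 and 210.6 to 1255 that overlap. SCARNA2, an RNA transcribed from its own promoter that guides methylation of the U2 spliceosomal RNA, was the highest of all at 20765 per kilobase. SNORA63 came next at 13506, then SNORD17 at 10992 and SCARNA10, a guide for the U5 spliceosomal RNA, at 9699. One gene took a large part of each class. SCARNA2 held 43.4% of SCARNA reads in PEN-FFW, 43.7% in PEN-WT, 43.3% in PEN-MUT and 42.9% in PEN, so its share was nearly level. SNORD17 held 24.4% of SNORD reads in PEN-FFW, 19.3% in PEN-WT, 19.4% in PEN-MUT and 14.1% in PEN, a share that was highest in PEN-FFW and lowest in PEN.

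**Figure D1:**
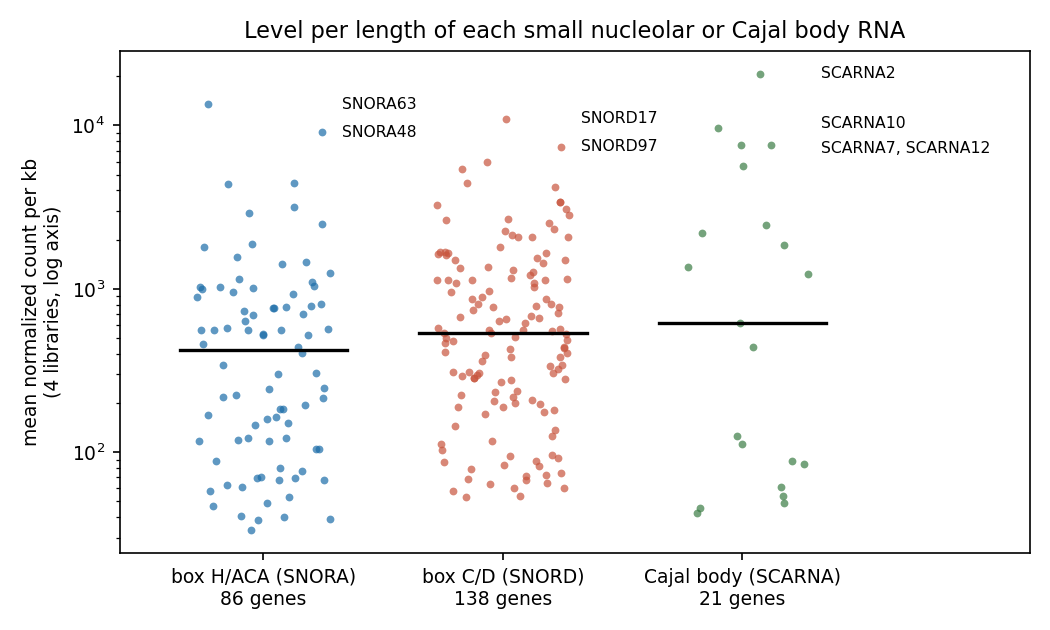
Mean normalized count per kilobase over the 4 libraries on a log axis, 1 point per small RNA and a black line at the median, by class (SNORA, SNORD, SCARNA). SCARNA2 at 20765, SNORA63 at 13506 and SNORD17 at 10992 stand above the class medians of 423.5 to 613.1.

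Length went with level in different ways. The 14 members of 200 nucleotides or more had a median of 2019 normalized counts per kilobase, the 111 of 100 to under 200 nucleotides 343.3 and the 120 shorter ones 555.6. Across the 21 SCARNA genes the rank correlation of level per kilobase with length was 0.60, and across the 138 SNORD genes it was -0.29. These are descriptions over genes of the same 4 libraries, with no part of recovery or length separated.

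Nearly all members lay inside other genes. All 245 matched a RefSeq gene, 236 by symbol and 9 by an older symbol, and 221 lay within 127 host genes that have a row of their own. For 174 of them the host codes for protein and for 47 it does not. In 58 of the 221 the host rests on the RefSeq span alone and the strand was not tested. Among these are most members in GAS5 and all in SNHG1. Of the 163 with a same-strand host on GRCh37, 162 were intronic in the host's canonical transcript and 1, SNORA31 in TPT1, overlapped an exon of it. Over all annotated transcripts of the host, 79 were intronic in every one and 84 overlapped an exon of at least 1. SCARNA2, SNORA70G and SNORA76 lay in no gene, and 21 lay in a gene without a row. A further limit is copies: 109 members share their symbol or sequence with another locus, and the counting may have split or dropped their reads.

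Over all members together, levels of members and hosts were weakly related. The rank correlation of a member's mean normalized count with its host's was 0.05 across 221 members and -0.22 across the 108 averaging at least 50 normalized counts, descriptions over genes of the same libraries. By class it was -0.01 for 79 SNORA genes, -0.01 for SNORD genes and 0.45 for 19 SCARNA genes. SNORA48, SNORD10 and SNORA67 lie within the readthrough gene SENP3-EIF4A1, which stands as their host here and had normalized counts of 8.3 with PEN-FFW, 10.9 with PEN-WT, 6.0 with PEN-MUT and 11.8 with PEN, while EIF4A1 itself was listed at the floor in every library. SNORA48 had normalized counts of 1087 with PEN-FFW, 1271 with PEN-WT, 1242 with PEN-MUT and 1297 with PEN. SNORD102 and SNORA27 lie in RPL21, which was at the floor in all 4 libraries. Genes that every cell uses at the floor may be failed estimates, so these rows say only what is listed.

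To compare peptides, differences were taken as log2(normalized count + 10) and set relative to the median gene among the 12578 genes that averaged at least 50 normalized counts (53.0%), called well counted below. Of the members 119 were well counted, 44 SNORA, 63 SNORD and 12 SCARNA. The errors given are standard errors of read counting only. The same PEN library enters 3 of the 6 pairs, and PEN-MUT also enters 3, so the pairs are given side by side and not as independent results.

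None of the 119 members was 2-fold apart in any of the 6 pairs. For all well-counted genes in PEN-FFW against PEN, 2.08% passed 2-fold on the high side and 0.0398% on the low side. The shares were 2.49% higher and 0.00795% lower in PEN-FFW against PEN-MUT, and 0.0477% and 0.0159% in PEN-WT against PEN. They were 0.0398% and 0.0% in PEN-WT against PEN-MUT, 0.0% and 0.0159% in PEN-MUT against PEN, and 0.843% and 0.0% in PEN-FFW against PEN-WT. Among genes averaging 50 to 500 normalized counts, where most members lie, 5.74% passed on the high side in PEN-FFW against PEN, 6.73% against PEN-MUT and 2.41% against PEN-WT, shares above the 0 of 119 members. Against the small RNAs most like them, 4 of 13 microRNA genes passed 2-fold upward in PEN-FFW against PEN (median difference 0.56), and 0 of 6 other small noncoding RNAs (median 0.02). Below the limit of 50 counts, SNORA53, SNORA70G and SNORD71 were past 2-fold higher in PEN-FFW than in PEN and SNORD119 past 2-fold lower. They were named after their values were seen, and the most reads any of them had in 1 library were 73. A row at the floor in every library reads 0.27 in that pair, so centring lifts such low rows.

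At a 1.5-fold limit, chosen after the data were seen, 5 members were higher in PEN-FFW than in PEN (background 7.24%) and 1 lower (0.437%). They were SNORD17, SCARNA6, SNORD88B, SNORA23 and SNORD97, and SNORD24 below. In PEN-FFW against PEN-MUT 6 were higher (7.24%) and 0 lower (0.0875%), and against PEN-WT 8 were higher (4.17%) and 0 lower (0.0318%). In PEN-WT against PEN 0 were higher (0.827%) and 7 lower (0.374%), all box C/D RNAs. Between PEN-WT and PEN-MUT none passed in either direction (0.898% higher, 0.0159% lower). In PEN-MUT against PEN 0 were higher (0.215%) and 4 lower (0.35%). As shares of the 119, these were 4.2%, 5.04% and 6.72% higher in PEN-FFW than in PEN, PEN-MUT and PEN-WT, and 5.88% lower in PEN-WT and 3.36% lower in PEN-MUT than in PEN. Among genes averaging 50 to 500 normalized counts, where most members lie, 18.4%, 18.1% and 11.5% were 1.5-fold higher in PEN-FFW than in PEN, PEN-MUT and PEN-WT, so fewer members than such genes passed on the high side. The lower shares of these genes were 0.681% in PEN-WT and 0.838% in PEN-MUT against PEN.

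The classes lay apart in PEN-WT and PEN-MUT against PEN. The median SNORD was -0.31 in PEN-WT minus PEN, with 57 of 63 below the median gene, and the median SNORA -0.18, with 37 of 44 below. The median SCARNA was -0.03, with 8 of 12 below. In PEN-MUT minus PEN the medians were -0.26 for SNORD (56 of 63 below), -0.17 for SNORA (39 of 44) and 0.07 for SCARNA (3 of 12). By construction 6289 of the 12578 genes lie below, with quartiles of -0.10 to 0.12 and -0.09 to 0.08 in these pairs. Among genes averaging 50 to 500 normalized counts 40.1% and 50.6% lay below. Thus most nucleolar members were lower in both libraries than in PEN, relative to the median gene, and the median Cajal body RNA was near it.

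Relative to the median gene, the SNORD and SNORA medians of PEN-FFW lay closer to PEN than those of PEN-WT and PEN-MUT did. In PEN-FFW minus PEN the median was -0.14 for SNORD, with 38 of 63 below, 0.02 for SNORA, with 20 of 44, and 0.06 for SCARNA, with 4 of 12. Against PEN-MUT the medians of PEN-FFW were 0.13, 0.25 and 0.01, and against PEN-WT 0.18, 0.23 and 0.10. Of genes averaging 50 to 500 normalized counts 29.3% lay below the median gene in PEN-FFW minus PEN, against 62 of all 119 members. PEN-WT and PEN-MUT differed little from each other, by medians of -0.02 for SNORD, 0.00 for SNORA and -0.05 for SCARNA. Centring matters for PEN-FFW, whose median gene without it lay at -0.27 from PEN, -0.30 from PEN-MUT and -0.30 from PEN-WT. Without it every class median of PEN-FFW was negative against PEN, PEN-MUT and PEN-WT, between -0.41 and -0.05. Uncentred, the SNORD median minus PEN was -0.41 with PEN-FFW, -0.28 with PEN-WT and -0.24 with PEN-MUT, and the SNORA median -0.25 with PEN-FFW, -0.15 with PEN-WT and -0.15 with PEN-MUT, so on that scale PEN-FFW lay furthest from PEN.

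The choice of library that was highest, relative to the median gene and not by normalized count, shows the same values gene by gene. On that scale 54 of 119 members were highest in PEN (45.4%) and 51 in PEN-FFW (42.9%). Another 10 were highest in PEN-MUT (8.4%) and 4 in PEN-WT (3.36%). Among all well-counted genes the shares were 35.3% for PEN-FFW, 15.3% for PEN-WT, 22.1% for PEN-MUT and 27.2% for PEN. By class, 35 of 63 SNORD genes were highest in PEN, 22 of 44 SNORA genes in PEN-FFW and 6 of 12 SCARNA genes in PEN-MUT.

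**Figure D2:**
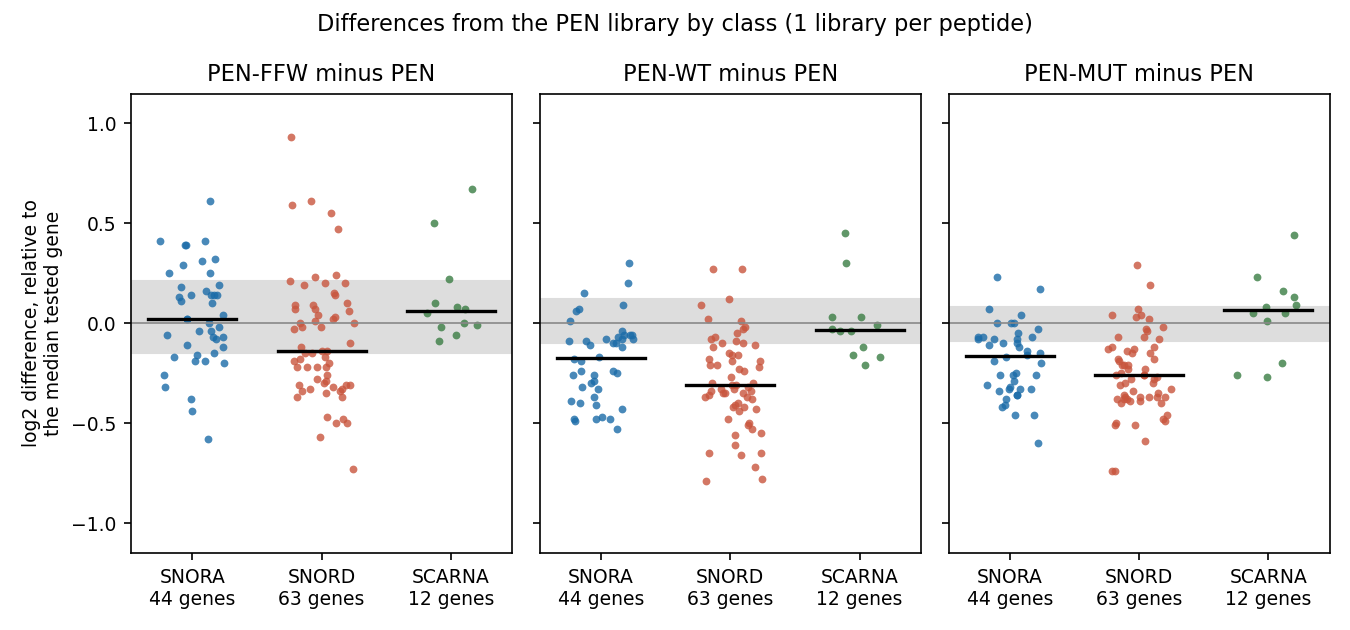
Log2 difference between each library and PEN for each well-counted small RNA, centred on the median gene, for PEN-FFW, PEN-WT and PEN-MUT, by class, with 44 SNORA, 63 SNORD and 12 SCARNA genes (black lines, class medians; grey bands, quartiles of all well-counted genes). SNORD medians lie at -0.14, -0.31 and -0.26, and SCARNA medians at 0.06, -0.03 and 0.07.

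Class and length were not separated here. The classes differ in length but overlap, with members of 121 to 250 nucleotides for SNORA, 48 to 237 for SNORD and 125 to 421 for SCARNA. In PEN-WT minus PEN the median was -0.33 for the 54 well-counted members under 100 nucleotides, -0.17 for the 54 of 100 to under 200 and -0.03 for the 11 of 200 or more. In PEN-MUT minus PEN it was -0.28, -0.17 and 0.09. In PEN-FFW minus PEN it was -0.16, 0.03 and 0.05. In each of these pairs shorter members were lower, and the part of RNA recovery in that was not tested.

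Summed reads gave another picture for SNORD than the medians, since SNORD17 takes a large share of them and lay above PEN in every other library. The 63 SNORD genes summed to 12948 reads in PEN-FFW, 15062 in PEN-WT, 11767 in PEN-MUT and 15201 in PEN. Relative to the median gene, this gave a ratio of 1.13 for PEN-FFW over PEN (95% counting interval 1.1 to 1.16), 0.897 for PEN-WT over PEN (0.877 to 0.917) and 0.908 for PEN-MUT over PEN (0.887 to 0.931). Leaving SNORD17 out gave 0.978 with PEN-FFW (0.953 to 1.0), 0.837 with PEN-WT (0.816 to 0.858) and 0.848 with PEN-MUT (0.825 to 0.871), so without that 1 gene PEN-FFW could not be told from PEN at this depth. The SNORA sum had ratios of 1.03 (1.0 to 1.06), 0.889 (0.867 to 0.911) and 0.862 (0.839 to 0.885). The SCARNA sum had 1.04 (1.02 to 1.06), 1.0 (0.987 to 1.02) and 1.06 (1.04 to 1.08), the nearest to 1 of the classes in PEN-WT and PEN-MUT.

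Among box C/D RNAs, SNORD17 showed the largest difference of any well-counted member. It had normalized counts of 3267 with PEN-FFW, 2541 with PEN-WT, 2554 with PEN-MUT and 2058 with PEN. PEN-FFW was highest, PEN lowest, and the other two were alike. The difference from PEN was 0.93 ± 0.04 with PEN-FFW, 0.27 ± 0.04 with PEN-WT and 0.29 ± 0.04 with PEN-MUT. Its host SNX5, a sorting nexin of endosomes, differed by -0.11 with PEN-FFW, -0.10 with PEN-WT and -0.04 with PEN-MUT.

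SNORD97, in the translation factor gene EIF4G2, had normalized counts of 1173 with PEN-FFW, 1159 with PEN-WT, 936.0 with PEN-MUT and 936.3 with PEN. PEN-FFW and PEN-WT were both above PEN-MUT and PEN, by 0.62 ± 0.06 and 0.59 ± 0.06 for PEN-FFW and 0.30 ± 0.06 and 0.27 ± 0.06 for PEN-WT. SNORD15B, in the ribosomal protein gene RPS3, had 415.4 with PEN-FFW, 329.1 with PEN-WT, 374.0 with PEN-MUT and 361.1 with PEN, with PEN-FFW highest, 0.47 ± 0.09 above PEN, and PEN-WT lowest, at -0.16 ± 0.10 from it.

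The other abundant box C/D RNAs differed less. SNORD10 had normalized counts of 484.7 with PEN-FFW, 477.4 with PEN-WT, 447.0 with PEN-MUT and 509.7 with PEN. Relative to the median gene, PEN-FFW stood 0.41 ± 0.09 above PEN-MUT and 0.20 ± 0.08 above PEN. SNORD2, in EIF4A2, had 383.1 with PEN-FFW, 378.0 with PEN-WT, 364.0 with PEN-MUT and 399.7 with PEN. On that scale SNORD2 stood 0.37 ± 0.10 above PEN-MUT and 0.21 ± 0.09 above PEN in PEN-FFW. SNORD104 had 440.4 with PEN-FFW, 480.5 with PEN-WT, 491.0 with PEN-MUT and 497.1 with PEN. Its PEN-FFW value was 0.10 ± 0.09 from PEN relative to the median gene.

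SNORD48, which is often used as a reference in microRNA assays, had normalized counts of 104.3 with PEN-FFW, 66.0 with PEN-WT, 87.0 with PEN-MUT and 84.0 with PEN. PEN-FFW was highest and PEN-WT lowest, 0.89 ± 0.18 apart. SNORD52 lies in the same gene, C6orf48, and ordered the libraries otherwise, with 77.5 with PEN-FFW, 96.3 with PEN-WT, 64.0 with PEN-MUT and 111.7 with PEN. It was lowest in PEN-MUT, at -0.74 ± 0.19 from PEN, while the host lay at -0.09 from PEN with PEN-FFW, -0.07 with PEN-WT and 0.01 with PEN-MUT. SNORD88B had normalized counts of 73.9 with PEN-FFW, 54.3 with PEN-WT, 54.0 with PEN-MUT and 56.3 with PEN, with only PEN-FFW high, by 0.61 ± 0.21 against PEN.

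SNORD24, in the ribosomal protein gene RPL7A, had normalized counts of 36.0 with PEN-FFW, 68.3 with PEN-WT, 46.0 with PEN-MUT and 82.3 with PEN. PEN-FFW and PEN-MUT were low by like amounts, -0.73 ± 0.22 and -0.74 ± 0.22 from PEN, so the difference did not set PEN-FFW apart from PEN-MUT. SNORD49A had 127.4 with PEN-FFW, 190.2 with PEN-WT, 234.0 with PEN-MUT and 200.7 with PEN, and was lowest in PEN-FFW, at -0.35 ± 0.14 from PEN and -0.53 ± 0.15 from PEN-MUT. SNORD75 and SNORD81, both in GAS5, and SNORD16, in RPL4, were also lowest in PEN-FFW, at -0.50, -0.57 and -0.50 from PEN.

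The 7 members at least 1.5-fold lower in PEN-WT than in PEN all lay in hosts that code for no protein. They were SNORD79, SNORD77, SNORD47 and SNORD80 in GAS5, SNORD28 in SNHG1, SNORD99 in SNHG12 and SNORD87 in SNHG6. Hosts that code for no protein held 34 of the 102 well-counted members with a well-counted host. Several of the 7 share GAS5, so they are not separate loci. SNORD87 had normalized counts of 57.2 with PEN-FFW, 35.7 with PEN-WT, 57.0 with PEN-MUT and 67.2 with PEN, and SNORD99 had 57.2 with PEN-FFW, 39.6 with PEN-WT, 56.0 with PEN-MUT and 66.3 with PEN. PEN-WT was the lowest library in both, at -0.79 ± 0.22 and -0.65 ± 0.21 from PEN. Also below both PEN and PEN-MUT in PEN-WT, by less, was SNORD96A, in GNB2L1, at -0.43 from PEN and -0.39 from PEN-MUT, with 101.6 with PEN-FFW, 90.0 with PEN-WT, 121.0 with PEN-MUT and 121.8 with PEN. On the high side of PEN-WT, SNORD84 had 60.0 with PEN-FFW, 67.5 with PEN-WT, 55.0 with PEN-MUT and 61.3 with PEN, and PEN-WT stood above PEN and PEN-MUT by less than 2 standard errors.

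**Figure D3:**
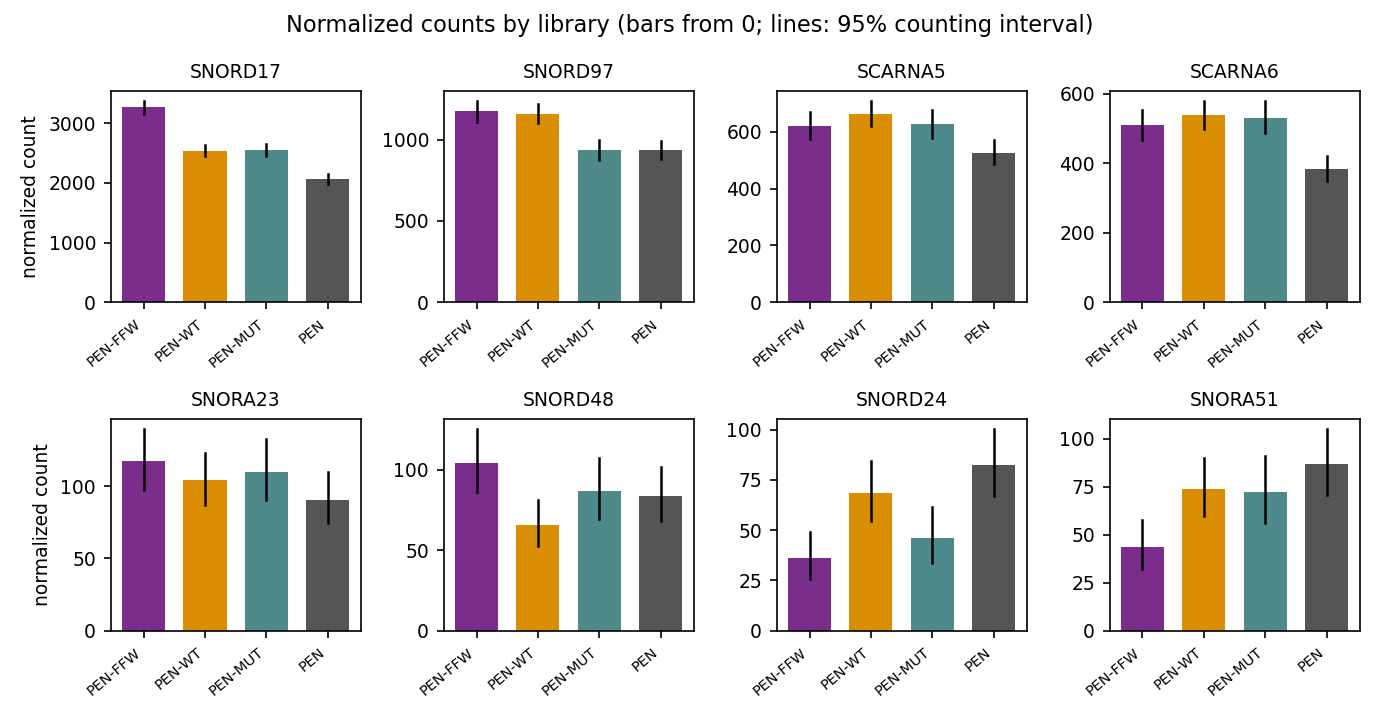
Normalized counts of single small RNAs in PEN-FFW, PEN-WT, PEN-MUT and PEN, as bars from 0 with 95% counting intervals. SNORD17 stands at 3267 in PEN-FFW against 2058 in PEN, and SNORD24 at 36.0 in PEN-FFW against 82.3 in PEN.

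Among box H/ACA RNAs the most abundant, SNORA63 in EIF4A2, had normalized counts of 1764 with PEN-FFW, 1856 with PEN-WT, 1607 with PEN-MUT and 2066 with PEN. Relative to the median gene it was level between PEN-FFW and PEN (0.04 ± 0.04) and lowest in PEN-MUT (-0.38 ± 0.05). SNORA57, in METTL12, had 475.4 with PEN-FFW, 447.9 with PEN-WT, 441.0 with PEN-MUT and 521.5 with PEN. Relative to the median gene, PEN-WT and PEN-MUT were low by like amounts, -0.25 ± 0.08 and -0.26 ± 0.09 from PEN. On that scale PEN-FFW stood 0.14 ± 0.08 above PEN. SNORA12, in CWF19L1, had 500.4 with PEN-FFW, 627.2 with PEN-WT, 738.0 with PEN-MUT and 728.1 with PEN, and was low in PEN-FFW (-0.26 ± 0.08 from PEN) and in PEN-WT (-0.24 ± 0.07).

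SNORA23, in the nuclear import receptor gene IPO7, had normalized counts of 117.2 with PEN-FFW, 104.0 with PEN-WT, 110.0 with PEN-MUT and 90.7 with PEN. It was highest in PEN-FFW, 0.61 ± 0.17 above PEN, and lowest in PEN. SNORA51 lies in NOP56, which encodes a core protein of box C/D particles, and had 43.4 with PEN-FFW, 73.7 with PEN-WT, 72.0 with PEN-MUT and 86.5 with PEN. It was lowest in PEN-FFW, at -0.58 ± 0.21 from PEN, where NOP56 itself was at -0.27.

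The SNORA71 copies, which sit side by side on chromosome 20, did not move as one. SNORA71A had normalized counts of 638.8 with PEN-FFW, 629.5 with PEN-WT, 510.0 with PEN-MUT and 646.6 with PEN. SNORA71D had 207.7 with PEN-FFW, 312.1 with PEN-WT, 213.0 with PEN-MUT and 265.4 with PEN. SNORA71A stood 0.62 ± 0.08 higher in PEN-FFW than in PEN-MUT, and SNORA71D was highest in PEN-WT, 0.53 ± 0.12 above PEN-MUT; SNORA71C was highest in PEN-FFW, 0.43 ± 0.15 above it. Copies this alike may trade reads. SNORA7B had 67.4 with PEN-FFW, 55.1 with PEN-WT, 52.0 with PEN-MUT and 82.3 with PEN, and was lowest in PEN-MUT, at -0.60 ± 0.21 from PEN. SNORA38 had 65.5 with PEN-FFW, 90.0 with PEN-WT, 71.0 with PEN-MUT and 69.7 with PEN, and was highest in PEN-WT, by 0.30 ± 0.18 against PEN.

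Most Cajal body RNAs lay near PEN, and 2, SCARNA5 and SCARNA6, stood furthest above it in every other library. SCARNA2 had normalized counts of 7642 with PEN-FFW, 9085 with PEN-WT, 9435 with PEN-MUT and 8723 with PEN. Relative to the median gene it differed from PEN by 0.08 ± 0.02 with PEN-FFW, 0.03 ± 0.02 with PEN-WT and 0.09 ± 0.02 with PEN-MUT. SCARNA10, SCARNA7, SCARNA12, SCARNA21, SCARNA16 and SCARNA9L lay between -0.17 and 0.16 of PEN in every library. SCARNA9 and SCARNA17 were lowest in PEN-MUT on that scale, at -0.27 ± 0.07 and -0.20 ± 0.13 from PEN. SCARNA22, which lies in WHSC1, had 161.6 with PEN-FFW, 146.7 with PEN-WT, 140.0 with PEN-MUT and 167.1 with PEN, and was 0.49 ± 0.15 higher in PEN-FFW than in PEN-MUT.

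SCARNA5 had normalized counts of 621.3 with PEN-FFW, 663.7 with PEN-WT, 627.0 with PEN-MUT and 526.5 with PEN. SCARNA6 had 509.6 with PEN-FFW, 538.7 with PEN-WT, 531.0 with PEN-MUT and 382.9 with PEN. By normalized count PEN was the low library in both. Relative to the median gene PEN-FFW stood highest, and the 2 RNAs summed lay 0.26 above PEN-MUT (95% counting interval 0.15 to 0.38) and 0.21 above PEN-WT (0.10 to 0.32). From PEN, SCARNA5 differed by 0.50 ± 0.08 with PEN-FFW, 0.30 ± 0.07 with PEN-WT and 0.23 ± 0.08 with PEN-MUT, and SCARNA6 by 0.67 ± 0.09 with PEN-FFW, 0.45 ± 0.09 with PEN-WT and 0.44 ± 0.09 with PEN-MUT. Their host ATG16L1, an autophagy gene, differed by -0.09 with PEN-FFW, -0.10 with PEN-WT and 0.00 with PEN-MUT. The pair shares a host, so it is 1 locus with 2 readings, and PEN-MUT lay above PEN in both.

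Each member was then set against its host, for the 102 well-counted members in 56 well-counted hosts. In PEN-FFW minus PEN the median member was 0.07 above its host, 59 above and 43 below, and 77 of 102 differed from the host by less than the 95% counting interval. SNORD17 stood furthest above its host, by 1.05 ± 0.05, followed by SNORA23 (0.98 ± 0.17), SCARNA6 (0.76 ± 0.10) and SNORD15B (0.68 ± 0.10). SNORA49 stood furthest below. It had normalized counts of 177.3 with PEN-FFW, 152.1 with PEN-WT, 151.0 with PEN-MUT and 200.7 with PEN. Relative to the median gene PEN-FFW lay 0.10 ± 0.13 above PEN, while its host EP400, a chromatin remodeller gene, was at 0.74. SNORD24, SNORD81 and SNORA51 differed from theirs by -0.55, -0.36 and -0.32.

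In PEN-WT minus PEN 80 of 102 members lay below their host (median -0.14), and in PEN-MUT minus PEN 79 of 102 (median -0.16). In PEN-FFW 88 of 102 lay above the host against PEN-MUT (median 0.27) and 82 against PEN-WT (median 0.23). Of all genes averaging 50 to 500 normalized counts, 29.1% lay below the median gene in PEN-FFW minus PEN-MUT and 31.2% minus PEN-WT. Most genes at the level of most members thus also lay above the median gene there. Members were not matched to hosts by level, so the part of level in these counts was not tested. Minus PEN, the hosts themselves had a median of -0.16 with PEN-FFW, -0.09 with PEN-WT and -0.02 with PEN-MUT over those that were well counted. Among members in hosts that code for no protein, 31 of 34 were below the host in PEN-WT minus PEN (median -0.24), and among those in protein-coding hosts 49 of 68 (median -0.08). In PEN-WT minus PEN 73 of 102 and in PEN-MUT minus PEN 71 of 102 differed from the host by less than the 95% counting interval. Outside it, 23 lay below and 6 above in PEN-WT minus PEN, and 24 below and 7 above in PEN-MUT minus PEN. In PEN-FFW 58 of 102 lay within it against PEN-MUT, with 39 above and 5 below. Against PEN-WT 58 of 102 also lay within it, with 44 above and 0 below. Across the 102 members the rank correlation with the host's difference was 0.43 with PEN-FFW, 0.34 with PEN-WT and 0.06 with PEN-MUT, each minus PEN. These describe genes of the same libraries, many of them in shared hosts.

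**Figure D4:**
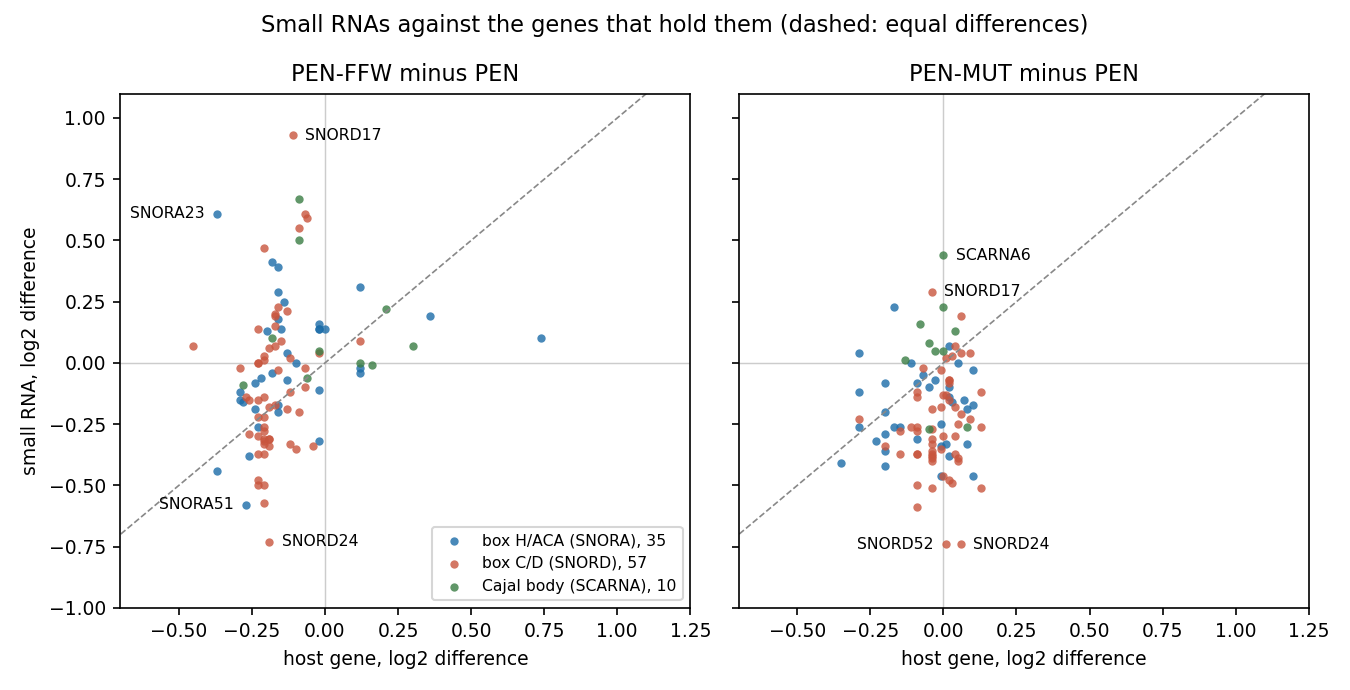
Log2 difference of 102 small RNAs (vertical) against that of the host gene (horizontal) for PEN-FFW minus PEN and PEN-MUT minus PEN; the dashed line marks equal differences. In PEN-FFW 43 and in PEN-MUT 79 of 102 points lie below the line.

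GAS5 and SNHG1, whose spliced exons are degraded while their introns yield snoRNAs, hold the 2 largest groups of well-counted members. The 10 box C/D RNAs of GAS5 summed to 1428 normalized counts in PEN-FFW, 1508 in PEN-WT, 1692 in PEN-MUT and 2165 in PEN. PEN was highest for all 10, at differences of -0.57 to -0.14 in PEN-FFW, -0.78 to -0.31 in PEN-WT and -0.51 to -0.19 in PEN-MUT. Relative to the median gene the sum differed from PEN by -0.33 (95% counting interval -0.42 to -0.24) with PEN-FFW, -0.55 (-0.64 to -0.47) with PEN-WT and -0.38 (-0.47 to -0.29) with PEN-MUT, and the GAS5 row by -0.21, -0.13 and -0.04. Of these 10, SNORD44 had 224.3 with PEN-FFW, 241.4 with PEN-WT, 276.0 with PEN-MUT and 340.1 with PEN.

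The 8 box C/D RNAs of SNHG1 summed to 1023 normalized counts in PEN-FFW, 1045 in PEN-WT, 1130 in PEN-MUT and 1402 in PEN. All 8 were below the median gene in PEN-WT and in PEN-MUT minus PEN, and 5 of 8 in PEN-FFW. The 6 well-counted members in TAF1D, a gene for a subunit of an RNA polymerase I factor, were all below in PEN-WT and PEN-MUT as well, and 2 of 6 in PEN-FFW. That gene codes for protein, and holds SNORA as well as SNORD genes. Members of 1 host share their source and are not separate readings of a condition. With 1 value per host the median SNORD of PEN-WT minus PEN was -0.22 in place of -0.31, and that of PEN-FFW minus PEN 0.03 in place of -0.14.

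**Figure D5:**
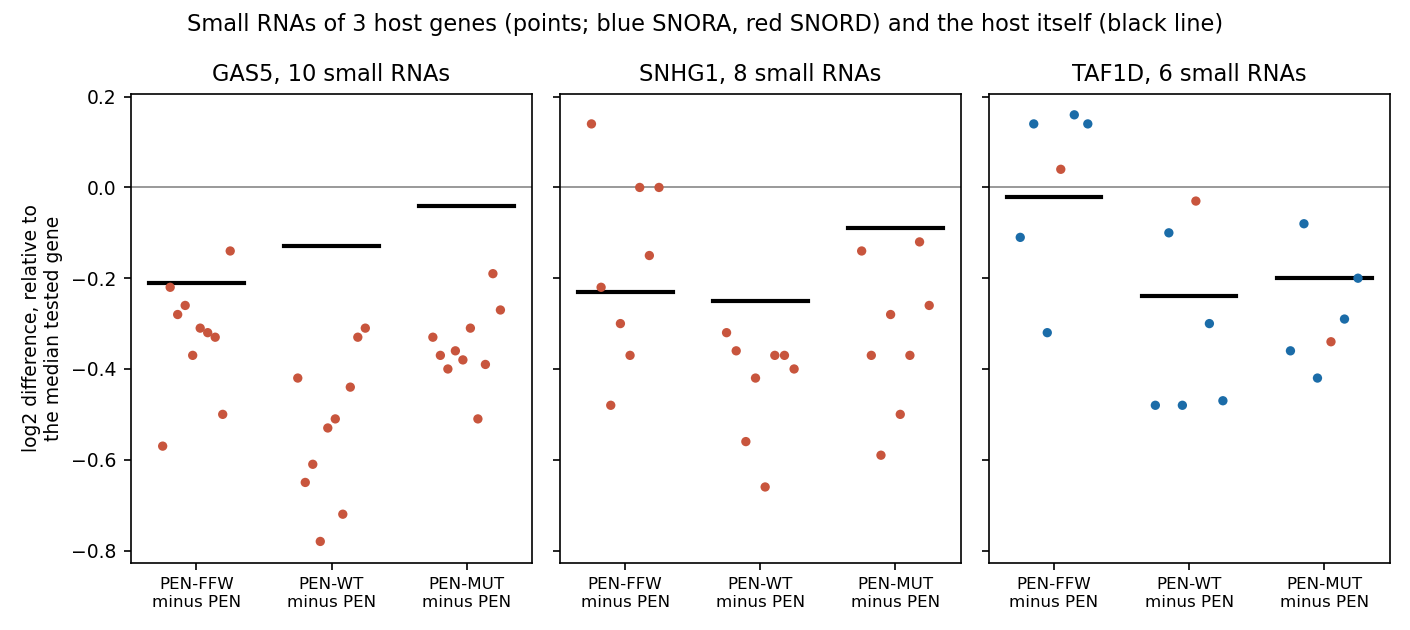
Log2 differences from PEN of the small RNAs in GAS5, SNHG1 and TAF1D (points; SNORA and SNORD in separate colours) and of the host gene (black line), for PEN-FFW, PEN-WT and PEN-MUT. All 10 GAS5 members lie below 0 in each, between -0.78 and -0.14.

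Most genes for the proteins of these particles were lower than the median gene in PEN-FFW and PEN-WT minus PEN, and fewer in PEN-MUT minus PEN. Of 34 genes listed for particle cores, assembly, transport and trimming 33 had a row and 32 were well counted. None of the 32 was 2-fold apart in either direction in any pair, and 28 lay below the median gene in PEN-FFW minus PEN (median -0.21), 28 in PEN-WT minus PEN (median -0.13) and 19 in PEN-MUT minus PEN (median -0.08). All 8 core genes (FBL, NOP56, NOP58, NHP2L1, DKC1, NHP2, NOP10 and GAR1) lay below it in PEN-FFW minus PEN (median -0.34) and PEN-WT minus PEN (median -0.23), and 6 of 8 in PEN-MUT minus PEN (median -0.15). GAR1, a core protein of box H/ACA particles, had normalized counts of 498.5 with PEN-FFW, 756.8 with PEN-WT, 704.0 with PEN-MUT and 903.6 with PEN. It was lowest in PEN-FFW, at -0.58 ± 0.07 from PEN, followed by NHP2L1, a core protein of box C/D particles, at -0.47 ± 0.04. The highest were XRN1, an exonuclease, at 0.11 ± 0.05 and NAF1, an H/ACA assembly factor, at 0.07 ± 0.11. In PEN-FFW minus PEN-WT 7 of 8 core genes lay below the median gene, and 27 of 119 members. In that pair 31.2% of all genes averaging 50 to 500 normalized counts, where most members lie, were below it. The core genes had higher counts than most members, and the part of level in this contrast was not tested.

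Long nuclear RNAs lay further above PEN in PEN-FFW than the member medians did. NEAT1, the scaffold of paraspeckles, had normalized counts of 1939 with PEN-FFW, 1141 with PEN-WT, 897.0 with PEN-MUT and 1098 with PEN. KCNQ1OT1, an imprinted antisense RNA, had 4047 with PEN-FFW, 1766 with PEN-WT, 1284 with PEN-MUT and 1538 with PEN. Both were far highest in PEN-FFW, by 1.08 ± 0.05 and 1.66 ± 0.04 against PEN, and MALAT1 by 0.61 ± 0.01. In that pair the medians of the 3 member classes lay between -0.14 and 0.06. In PEN-MUT minus PEN the long RNAs lay between -0.34 and -0.28, and the medians were -0.26 for SNORD, -0.17 for SNORA and 0.07 for SCARNA. In PEN-WT minus PEN the long RNAs lay between -0.01 and 0.17, and the medians were -0.31, -0.18 and -0.03. In PEN-FFW minus PEN-MUT the long RNAs lay between 0.96 and 1.95, and the medians were 0.13, 0.25 and 0.01.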

How the data were processed

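RNA of SNU398 cells was measured in 4 libraries, 1 per peptide; the 3 chromatin samples of the series are not analysed here. The authors deposited log2 values for 23710 genes. The submitters' processing notes name STAR 2.4.0i, featureCounts 1.5.0-p1 and the build hg19. No source used here gives the gene annotation, strand setting or normalization method, so reads of a small RNA and of an overlapping host transcript cannot be told apart.

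With the log2 undone, 100% of the deposited values above the floor of 5 were whole multiples of a step particular to each library (tolerance 0.1 read). The steps were 0.923 for PEN-FFW, 0.776 for PEN-WT, 1.000 for PEN-MUT and 0.840 for PEN. The floor hides up to 5 reads of a gene in PEN-FFW, 6 in PEN-WT, 4 in PEN-MUT and 5 in PEN.

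Differences used a pseudocount of 10, which draws those of low genes toward no change before centring. They were then centred on the median gene averaging at least 50. In the PEN-FFW pairs this lifts low genes. A row at the floor in every library reads 0.27 from PEN, 0.30 from PEN-MUT and 0.30 from PEN-WT there. Standard errors are Poisson errors, ratio intervals are Clopper-Pearson intervals at 95%, and both cover counting only. Neither the copying of molecules nor the spread between cultures is in them. No test was made and no library left out, since each peptide has 1 library. Hosts came from the RefSeq table and, where symbol and length (within 10 nucleotides) matched, from the GENCODE annotation of GRCh37, which also gave sequences. Named genes were every well-counted SCARNA, the 6 most abundant SNORA and SNORD, and those highest and lowest in each pair and against the host. One result under this rule is not reported here. Members and lists were chosen with earlier results of these data known. The scripts, run with Python 3.11.15, numpy 2.4.6, pandas 2.3.3 and scipy 1.17.1, were checked on simulated data. Alternatives changed the scaling, pseudocount, filter, floor and the members kept.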

Additional observations from a re-analysis of the deposited data

How the results depend on the processing

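The median differences, summed ratios, counts past 2-fold and differences from the host were recomputed under each alternative. Setting values at the floor to 0 and a pseudocount of 1 moved none of them beyond its counting interval. Of 282 differences of single named members 86 moved without centring, among them SCARNA2 in PEN-FFW over PEN, which was -0.19 in place of 0.08; 10 moved with the floor at 0 and 7 with a pseudocount of 1, all of SNORD66, SNORA14A and SNORA15 at the edge of the rule. Of 12 background percentages 7 moved when only genes averaging 50 to 500 were counted. The other results that moved follow, written as the first library over the second. Without centring on the median gene, the median difference of SNORA was -0.25 in PEN-FFW over PEN, -0.05 in PEN-FFW over PEN-MUT and -0.07 in PEN-FFW over PEN-WT. The median difference of SNORD was -0.41 in PEN-FFW over PEN, -0.16 in PEN-FFW over PEN-MUT and -0.12 in PEN-FFW over PEN-WT. The median difference of SCARNA was -0.21 in PEN-FFW over PEN, -0.29 in PEN-FFW over PEN-MUT and -0.20 in PEN-FFW over PEN-WT. SNORA sums had a ratio of 0.853 in PEN-FFW over PEN, 0.975 in PEN-FFW over PEN-MUT and 0.939 in PEN-FFW over PEN-WT. SNORD sums had a ratio of 0.936 in PEN-FFW over PEN, 1.02 in PEN-FFW over PEN-MUT and 1.02 in PEN-FFW over PEN-WT. SCARNA sums had a ratio of 0.866 in PEN-FFW over PEN, 0.807 in PEN-FFW over PEN-MUT, 1.03 in PEN-WT over PEN and 0.844 in PEN-FFW over PEN-WT. The count of members past the limit was 1 lower in PEN-FFW over PEN. With a mean of at least 20 normalized counts in place of 50, the median difference of SNORA was 0.08 in PEN-FFW over PEN and -0.12 in PEN-WT over PEN. SNORD sums had a ratio of 1.09 in PEN-FFW over PEN. The median of member minus host was 0.12 in PEN-FFW over PEN. The count of members past the limit was 1 higher in PEN-FFW over PEN and 1 lower in PEN-FFW over PEN. With every member kept, the median difference of SNORA was -0.10 in PEN-WT over PEN. The median difference of SNORD was -0.08 in PEN-FFW over PEN and 0.23 in PEN-FFW over PEN-WT. The median difference of SCARNA was -0.01 in PEN-FFW over PEN and 0.12 in PEN-FFW over PEN-MUT. SNORA sums had a ratio of 0.991 in PEN-FFW over PEN, 1.16 in PEN-FFW over PEN-MUT and 1.13 in PEN-FFW over PEN-WT. SNORD sums had a ratio of 1.06 in PEN-FFW over PEN, 1.19 in PEN-FFW over PEN-MUT and 1.22 in PEN-FFW over PEN-WT. SCARNA sums had a ratio of 0.997 in PEN-FFW over PEN, 0.949 in PEN-FFW over PEN-MUT and 1.01 in PEN-FFW over PEN-WT. The median of member minus host was 0.19 in PEN-FFW over PEN, 0.33 in PEN-FFW over PEN-MUT, -0.08 in PEN-WT over PEN and 0.29 in PEN-FFW over PEN-WT. The count of members past the limit was 3 higher in PEN-FFW over PEN, 1 lower in PEN-FFW over PEN, 2 higher in PEN-FFW over PEN-MUT and 3 higher in PEN-FFW over PEN-WT. With a pseudocount of 50, the median difference of SNORD was -0.04 in PEN-FFW over PEN and -0.23 in PEN-WT over PEN. The median of member minus host was 0.15 in PEN-FFW over PEN, 0.32 in PEN-FFW over PEN-MUT, -0.09 in PEN-WT over PEN and -0.12 in PEN-MUT over PEN. In the next alternative members not placed on the genome, among them most of GAS5 and all of SNHG1, were kept without an exon check. Without members found over an exon, the median difference of SNORD was -0.37 in PEN-WT over PEN and -0.13 in PEN-WT over PEN-MUT. SNORA sums had a ratio of 0.985 in PEN-FFW over PEN, 1.09 in PEN-FFW over PEN-MUT, 0.965 in PEN-WT over PEN-MUT and 0.911 in PEN-MUT over PEN. SNORD sums had a ratio of 1.16 in PEN-FFW over PEN, 0.946 in PEN-WT over PEN-MUT, 0.933 in PEN-MUT over PEN and 1.32 in PEN-FFW over PEN-WT. The median of member minus host was 0.00 in PEN-FFW over PEN and 0.00 in PEN-WT over PEN-MUT. Without members that share a symbol or sequence, the median difference of SNORA was -0.09 in PEN-WT over PEN. The median difference of SNORD was -0.01 in PEN-FFW over PEN, -0.25 in PEN-WT over PEN and 0.27 in PEN-FFW over PEN-WT. SNORA sums had a ratio of 1.08 in PEN-FFW over PEN, 1.26 in PEN-FFW over PEN-MUT, 0.921 in PEN-WT over PEN and 1.08 in PEN-WT over PEN-MUT. SNORD sums had a ratio of 1.23 in PEN-FFW over PEN, 1.3 in PEN-FFW over PEN-MUT, 0.947 in PEN-WT over PEN, 0.952 in PEN-MUT over PEN and 1.3 in PEN-FFW over PEN-WT. With 1 value per host gene, added after seeing the data, the median difference of SNORD was 0.03 in PEN-FFW over PEN and -0.22 in PEN-WT over PEN. With a limit of 1.5-fold, added after seeing the data, the count of members past the limit was 5 higher in PEN-FFW over PEN, 1 lower in PEN-FFW over PEN, 6 higher in PEN-FFW over PEN-MUT, 7 lower in PEN-WT over PEN, 4 lower in PEN-MUT over PEN and 8 higher in PEN-FFW over PEN-WT. Without the most abundant member of a class, added after seeing the data, SNORD sums had a ratio of 0.978 in PEN-FFW over PEN, 1.16 in PEN-FFW over PEN-MUT, 0.837 in PEN-WT over PEN, 0.848 in PEN-MUT over PEN and 1.17 in PEN-FFW over PEN-WT. For the values that turned sign the cause was not tested.

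No paired analysis was possible because each peptide has 1 library. For the same reason no library could be left out and no p-value given. Counting error limits members near 50 normalized counts to standard errors of about 0.2, so 1.5-fold differences of single low members are weakly held. The spread between cultures is unknown. Small RNAs shorter than a sequenced fragment, reads that match several copies and reads of unspliced host RNA enter these counts in unknown shares.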
